A study of Arabidopsis thaliana with 72 samples.

Results

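The 26S proteasome genes of Arabidopsis thaliana, with NAC053 and NAC078, were followed in shoots and roots of seedlings treated with the phytotoxin t-chalcone. The 46 genes were chosen by identifier among the 22884 genes of the deposited table, and all 46 were present. They were 23 genes of the 20S core (12 alpha and 11 beta subunits), 12 genes of the base (10 RPT ATPases and the non-ATPase subunits RPN1A and RPN2A), 8 genes of the lid, RPN10 and the 2 NAC genes. All 46 passed the filter on low values in both tissues.

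The 26S proteasome degrades proteins that carry ubiquitin chains. Its barrel-shaped core holds the proteolytic sites on beta subunits behind a gate of alpha subunits, the ring of RPT ATPases in the base unfolds the substrate and feeds it in, and the lid removes the ubiquitin chain. In Arabidopsis many subunits have a pair of gene copies, and the transcription factors NAC053 and NAC078 are known to raise proteasome genes together when proteasome activity is impaired.

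Seedlings were 14 days old, grown on agar plates with sucrose under a day of 16 h light and 8 h dark, and treatment began 7 h into the light period. Treated plates received 8 mL of t-chalcone at 21 µM, its IC50 by the study's design, and control plates received 0.1% ethanol (EtOH). Each group of tissue, treatment and time had 3 samples. Those with t-chalcone or EtOH were taken at 1, 3, 6, 12 and 24 h, and those at 0 h had EtOH or no treatment. The seedlings' accession and how many were pooled per sample are not stated in the labels. Nothing says that the samples of a group came from separate cultures, so p-values cover only how far these samples spread, and that spread may be technical.

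The 6 untreated columns at 0 h held the same values as the 6 EtOH columns at 0 h and were counted as the same libraries, which left 66 libraries. Whether these plants had EtOH or no treatment cannot be told from the labels or values, so the EtOH samples at 0 h may be untreated. Of these, 5 had totals of 0.128 to 0.39 M recovered reads and were left out of the fits: EtOH roots at 0 and 3 h, EtOH shoots at 12 and 24 h and t-chalcone shoots at 24 h each lost 1 library and have n = 2. The other 61 libraries had 0.866 to 22.478 M in roots and 1.514 to 25.971 M in shoots. Summed values of 7 root markers were 1239 to 4203 in roots and 86.1 to 314 in shoots, and those of 6 photosynthesis genes were 618 to 4422 in roots and 106592 to 476344 in shoots, so the tissues matched their labels. The tissues are bulk samples, in which fewer cells of a type and less RNA per cell cannot be told apart. Values are counts divided by library size factors, called normalised counts here, and a gene was called when limma's adjusted p, taken over all genes tested, was under 0.05.

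The upstream sequences of 4 base genes are shown because NAC053 and NAC078 are known in Arabidopsis to act through an element with the letters TGGGC. They are the stretch of up to 250 bases before the annotated gene start that overlaps no annotated exon, in TAIR10.1 and in the direction of the gene, with TGGGC and its complement GCCCA in capitals. RPT6B (chr5:6756383-6756632, plus strand) holds none and RPT3 (chr5:23568860-23569051, plus) 2. RPT1A (chr1:20068501-20068750, minus) holds 2 and RPN1A (chr2:8858712-8858961, plus) 4, of which a pair overlaps. These 4 genes do not stand for the base as a whole. Of its other genes RPT2A holds the letters, and RPN2A, RPT2B, RPT4A, RPT4B, RPT5A, RPT5B and RPT6A hold none.

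RPT6B: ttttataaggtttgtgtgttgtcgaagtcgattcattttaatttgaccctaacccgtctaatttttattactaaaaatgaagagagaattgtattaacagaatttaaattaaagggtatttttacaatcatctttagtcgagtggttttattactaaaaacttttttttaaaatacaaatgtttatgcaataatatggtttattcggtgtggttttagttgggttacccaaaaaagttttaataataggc
RPT3: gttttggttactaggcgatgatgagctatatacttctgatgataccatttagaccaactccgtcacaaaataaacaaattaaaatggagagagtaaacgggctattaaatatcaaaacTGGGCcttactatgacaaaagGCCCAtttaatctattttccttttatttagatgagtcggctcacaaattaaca
RPT1A: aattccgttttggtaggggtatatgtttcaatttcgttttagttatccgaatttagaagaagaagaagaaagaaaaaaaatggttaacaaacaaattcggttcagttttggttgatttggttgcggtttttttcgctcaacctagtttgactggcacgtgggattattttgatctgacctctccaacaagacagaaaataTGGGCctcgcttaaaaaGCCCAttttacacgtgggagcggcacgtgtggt
RPN1A: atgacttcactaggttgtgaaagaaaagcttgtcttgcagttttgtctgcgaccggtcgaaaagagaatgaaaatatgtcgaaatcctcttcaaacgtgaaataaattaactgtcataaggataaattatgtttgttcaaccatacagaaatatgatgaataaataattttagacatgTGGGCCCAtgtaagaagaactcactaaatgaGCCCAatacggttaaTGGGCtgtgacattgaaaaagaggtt

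NAC053 (AT3G10500) was the 1 member called at 1 h. In roots it had 1364, 1847 and 1946 normalised counts with t-chalcone, against 593, 651 and 652 with EtOH, and every treated library lay above every control library. The log2 fold change was 1.43 ± 0.14 (limma standard error, n = 3 each, adjusted p = 3.19e-08). No subunit gene was called at 1 h in roots, where 2.91% of all genes were called higher, and their median log2 fold change was 0.04. At an unadjusted p under 0.05 limma counted 4 subunit genes, edgeR called 1 and DESeq2 3. Of 7 root marker genes 6 were called lower in the same comparison, among them PRP3 (log2 fold change -2.23) and COBL9 (-1.76), and the 7 summed to at most 1964 in t-chalcone roots and at least 2986 in EtOH roots. At 3 h in roots PRP3 was called lower (-1.58) and the other 6 were not. Their part in the results was not tested.

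At 3 h NAC053 stood at 1618, 1717 and 1814 normalised counts in t-chalcone roots and at 776 and 796 in EtOH roots, a log2 fold change of 1.12 ± 0.16 (limma, adjusted p = 1.6e-05). In shoots it was 286, 306 and 306 with t-chalcone and 130, 153 and 154 with EtOH at the same time, a log2 fold change of 1.04 ± 0.16 (limma, adjusted p = 5.76e-04), where 1.63% of all genes were called higher. Treated and control libraries did not overlap in either tissue. With all 66 libraries in the fit, the shoot value at 3 h was no longer called (adjusted p = 0.452).

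The effect on NAC053 differed between times in roots (limma F test, adjusted p = 4.69e-05). The log2 fold change was 0.51 ± 0.14 at 6 h (limma, adjusted p = 0.0762), 0.52 ± 0.14 at 12 h (adjusted p = 0.0798) and -0.08 ± 0.14 at 24 h (adjusted p = 0.749), none of them called. At 6 h the libraries read 849.9, 923 and 1063 with t-chalcone and 551, 677 and 768 with EtOH, without overlap, where 9.33% of all genes had every treated library above every control. At 24 h they read 737, 746 and 776 with t-chalcone and 738, 763 and 893 with EtOH, and overlapped.

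In shoots NAC053 was called again at 24 h, with 165 and 170.4 normalised counts under t-chalcone and 81.1 and 128 under EtOH (log2 fold change 0.71 ± 0.20, limma, adjusted p = 0.0186, n = 2 each), where 6.08% of all genes were called higher. That call was kept in 1 of the 4 fits that left out a library, each of which leaves 1 library in an arm and takes its spread from the other groups, and was lost with edgeR (adjusted p = 0.0893).

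NAC078 (AT5G04410), which is known to act with NAC053, was called in roots at 3 h. It had 708, 753 and 764 normalised counts with t-chalcone and 538 and 556 with EtOH, a log2 fold change of 0.44 ± 0.11 (limma, adjusted p = 0.0101) with no overlap. In shoots at 3 h its values were 526, 585 and 591 with t-chalcone and 498, 517 and 527 with EtOH, which overlapped and were not called (limma, adjusted p = 0.292). At the other times it was not called in either tissue. At 12 h in shoots it read 542, 549.7 and 629.6 with t-chalcone and 651 and 669.6 with EtOH, all treated libraries below the controls (log2 fold change -0.21, limma, adjusted p = 0.209), as in 21.2% of all genes.

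**Figure D1:**
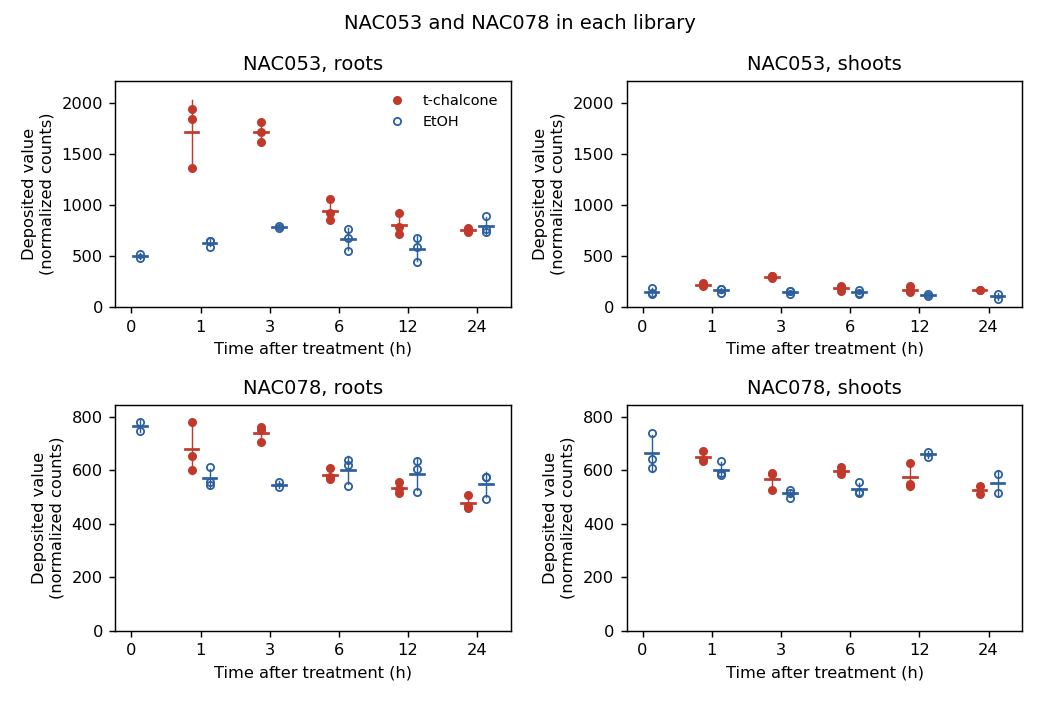
NAC053 and NAC078 in each library of the fits, as normalised counts against hours after treatment, for roots and shoots. Filled points are t-chalcone, open points EtOH, horizontal bars group means and vertical lines SD; NAC053 lies between 1364 and 1946 in t-chalcone roots at 1 and 3 h, above all EtOH roots.

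At 3 h in roots the subunit genes were higher as a group. All 44 had a positive log2 fold change (median 0.36, range 0.03 to 1.19), where 59.0% of all genes were above 0 and their median was 0.07. In 42 of 44, or 95.5%, every t-chalcone library lay above both EtOH libraries, against 30.4% of all genes. Called higher were 16 subunit genes, or 36.4%, against 5.47% of all genes, and none was called lower. Taken with both NAC genes, 18 of the 46 were called.

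The calls came from the core, the base and the lid. In the core 7 of 23 genes were called higher (median log2 fold change of all 23, 0.39), made up of 4 of 12 alpha and 3 of 11 beta subunits. In the base 5 of 12 were called higher (median of all 12, 0.28), all of them among the 10 ATPases (median 0.38), while RPN1A and RPN2A did not pass. In the lid 3 of 8 were called higher (median of all 8, 0.34), and so was RPN10, a receptor for ubiquitin chains. The difference between core, base and lid was not tested.

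**Figure D2:**
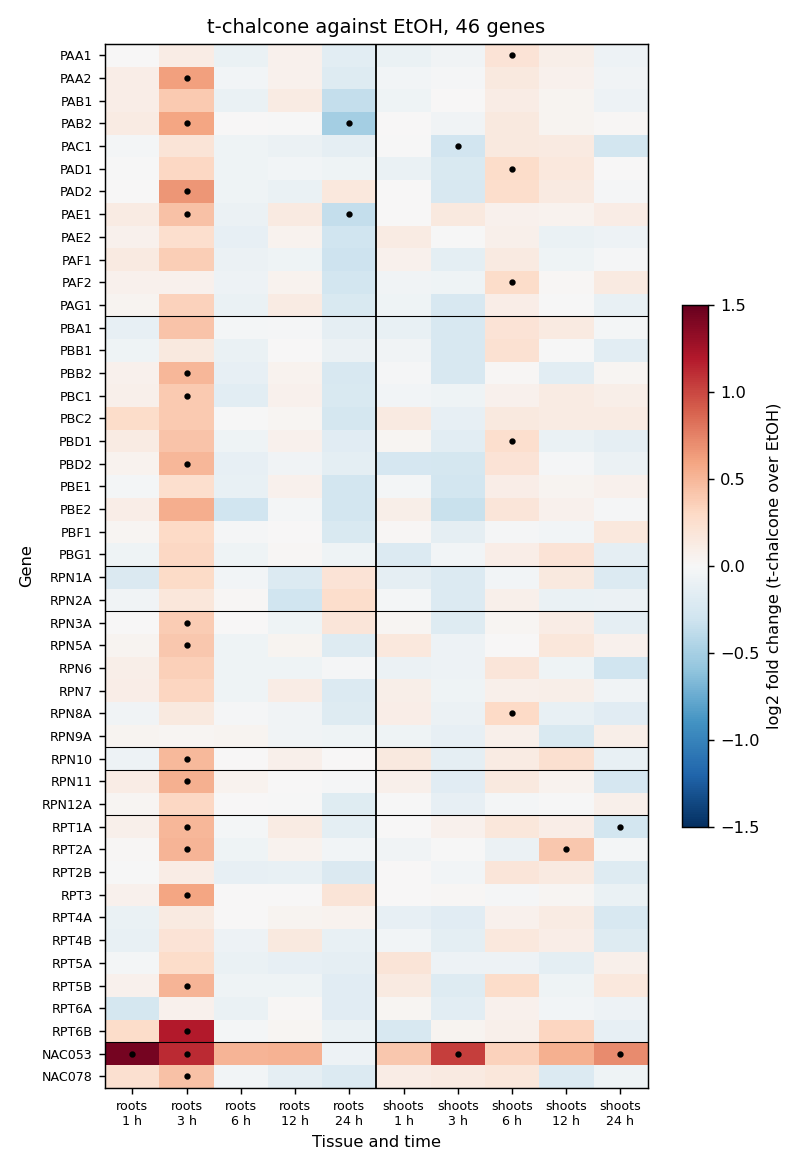
Log2 fold change of t-chalcone over EtOH for the 46 genes (rows, grouped as alpha, beta, base non-ATPase, lid with RPN10, base ATPase and NAC) in roots and shoots at 1 to 24 h (columns). Black dots mark limma calls; the roots 3 h column holds 18 of them, all red, with RPT6B at 1.19 and NAC053 at 1.12.

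RPT6B (AT5G20000), a copy of the ATPase RPT6, had the largest change of the subunits. Its values in roots at 3 h were 872, 872 and 881 normalised counts with t-chalcone and 377 and 391 with EtOH. The log2 fold change was 1.19 ± 0.12 (limma, adjusted p = 8.62e-08), and it was called in all 5 fits that left out a library. At the other times RPT6B was not called in roots. At 1 h it ran from 412 to 542 with t-chalcone and 337 to 401 with EtOH, without overlap. Of all genes 11.8% had every treated library above every control there. At 24 h RPT6B ran from 433 to 474 with t-chalcone and 466 to 502 with EtOH, which overlapped. In shoots at 3 h it had 272, 272 and 322 with t-chalcone and 261, 286 and 295 with EtOH, which overlapped.

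The other copy, RPT6A (AT5G19990), had 581, 581 and 604 with t-chalcone and 563 and 564 with EtOH, a log2 fold change of 0.06 ± 0.12 (limma, adjusted p = 0.834).

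PAA2 (AT2G05840), a copy of alpha subunit 1, had 1259.7, 1304 and 1341 normalised counts with t-chalcone and 839.9 and 851 with EtOH. The log2 fold change was 0.62 ± 0.11 (limma, adjusted p = 2.55e-04), without overlap. Its copy PAA1 (AT5G35590) had 812, 823 and 847 with t-chalcone and 728 and 803 with EtOH, a log2 fold change of 0.11 ± 0.11 (limma, adjusted p = 0.637).

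PBB2 (AT5G40580), a copy of the beta subunit with trypsin-like activity, had 664, 688 and 703 normalised counts with t-chalcone and 477 and 494 with EtOH (log2 fold change 0.50 ± 0.12, limma, adjusted p = 5.55e-03). PBB1 (AT3G27430) had 973, 979 and 1010.4 with t-chalcone and 836 and 951 with EtOH, and was not called (log2 fold change 0.15 ± 0.10, limma, adjusted p = 0.415). RPN11 (AT5G23540), the lid enzyme that cuts ubiquitin chains from the substrate, had 997, 1042 and 1047 with t-chalcone and 659 and 773 with EtOH (log2 fold change 0.53 ± 0.12, limma, adjusted p = 5.74e-03). RPN10 (AT4G38630) had 1014, 1052 and 1105 with t-chalcone and 645 and 873 with EtOH (log2 fold change 0.49 ± 0.13, limma, adjusted p = 0.0107). In these 3 genes that were called the treated libraries lay above the controls.

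RPN1A (AT2G20580), a scaffold of the base that docks shuttle proteins, did not pass: it had 1329.9, 1355 and 1425 normalised counts with t-chalcone and 1085 and 1160.4 with EtOH (log2 fold change 0.29 ± 0.11, limma, adjusted p = 0.131). The other called ATPases were RPT3 at a log2 fold change of 0.59, RPT2A and RPT5B at 0.51 and RPT1A at 0.50. The other called core genes were PAD2 at 0.66, PAB2 at 0.59, PBD2 at 0.50, PAE1 at 0.44 and PBC1 at 0.39. The other called lid genes were RPN5A at 0.41 and RPN3A at 0.38. PAD2 was called in 1 of 5 fits that left out a library, with its log2 fold change running from 0.22 to 1.10, and PBD2 and PAE1 in 0 of 5.

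The number of calls depended on the EtOH roots at 3 h, which had 2 libraries of 3.298 and 10.289 M, against 16.215 to 18.233 M in the treated roots. Leaving out each of the 5 libraries in turn gave 6 to 16 members called, the fewest without EtOH replicate 2. A fit without an EtOH library has 1 library in that arm, which is assumed to vary like the other groups. With all 66 libraries 33 were called, and with array weights over all 66, 5. The left-out EtOH library, of 0.128 M, held 7 recovered reads of RPT6B and 16 of NAC053. Photosynthesis genes summed to 2388 to 2540.1 in t-chalcone roots and 1692 to 2595 in EtOH roots at 3 h, and the part of shoot tissue in the result was not tested.

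**Figure D3:**
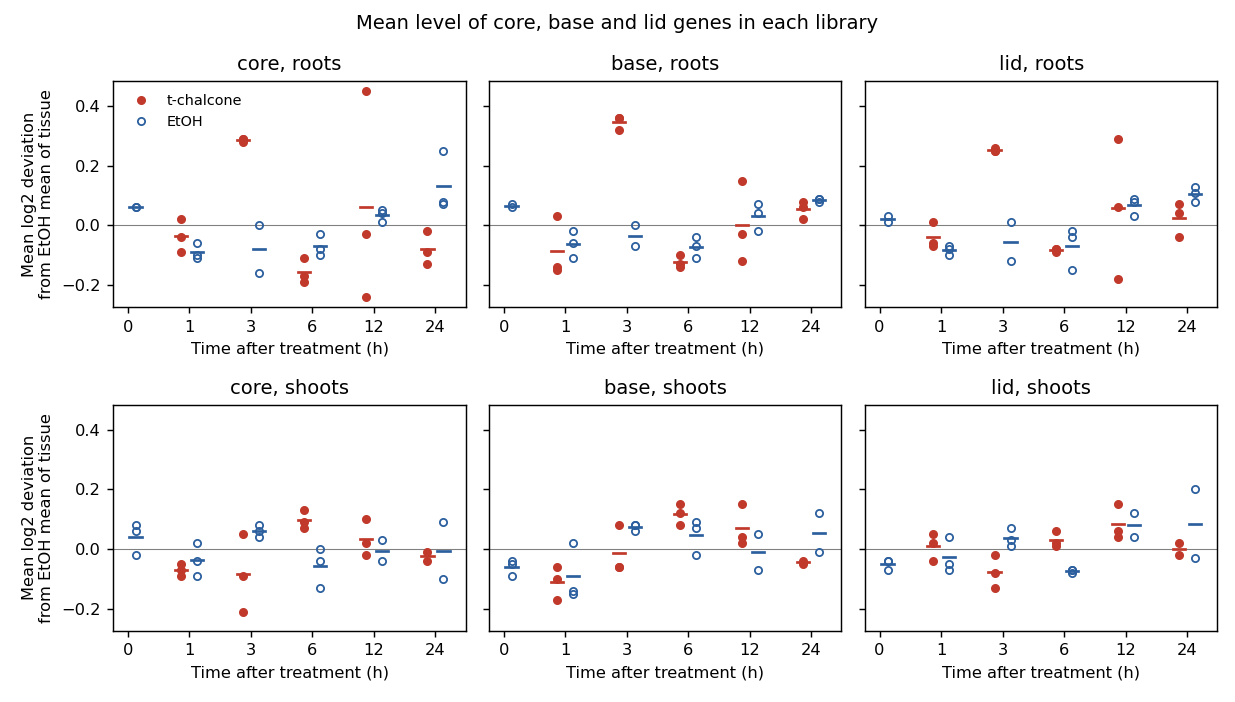
Mean log2 deviation of core, base and lid genes from their mean over EtOH libraries of the tissue, per library against hours after treatment. Filled points are t-chalcone, open points EtOH and bars group means; core genes in t-chalcone roots at 3 h lie at 0.28 to 0.29, against -0.16 and 0.00 in EtOH roots.

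At 3 h in roots the share of a copy in the signal of its pair did not overlap between treatments in 10 of 13 pairs. In 7 of these 10 the share of the B or 2 copy was larger with t-chalcone than with EtOH. Such shares were not taken over other gene pairs, so neither count can be set against a background. RPT6B supplied 66.8% ± 0.36 of the RPT6 signal per exon length with t-chalcone (SD, n = 3) and 48.0% ± 0.616 with EtOH (SD, n = 2). PAA2 supplied 54.9% ± 1.04 of alpha subunit 1 with t-chalcone and 46.1% ± 1.5 with EtOH, and PBB2 40.3% ± 0.518 with t-chalcone and 34.6% ± 1.5 with EtOH. These shares did not overlap. The two-sided permutation p counts the smaller tail 2 times, so 3 against 2 libraries cannot give an exact value under 0.2. That is the value for RPT6B, PAA2 and PBB2 alike. At 1 h in roots RPT6B supplied 51.3% ± 4.33 with t-chalcone and 42.0% ± 1.82 with EtOH (SD, n = 3 each), without overlap. PAA2 supplied 48.5% ± 1.97 and 46.8% ± 1.47 in the same order, which overlapped. PBB2 supplied 37.8% ± 0.892 and 35.7% ± 0.469, which did not. RPT6A and RPT6B lie next to each other on chromosome 5 and share 94.4% of aligned coding bases, and the other 12 pairs share 80.7% to 89.6%, so reads may have been split between copies in the counting.

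**Figure D4:**
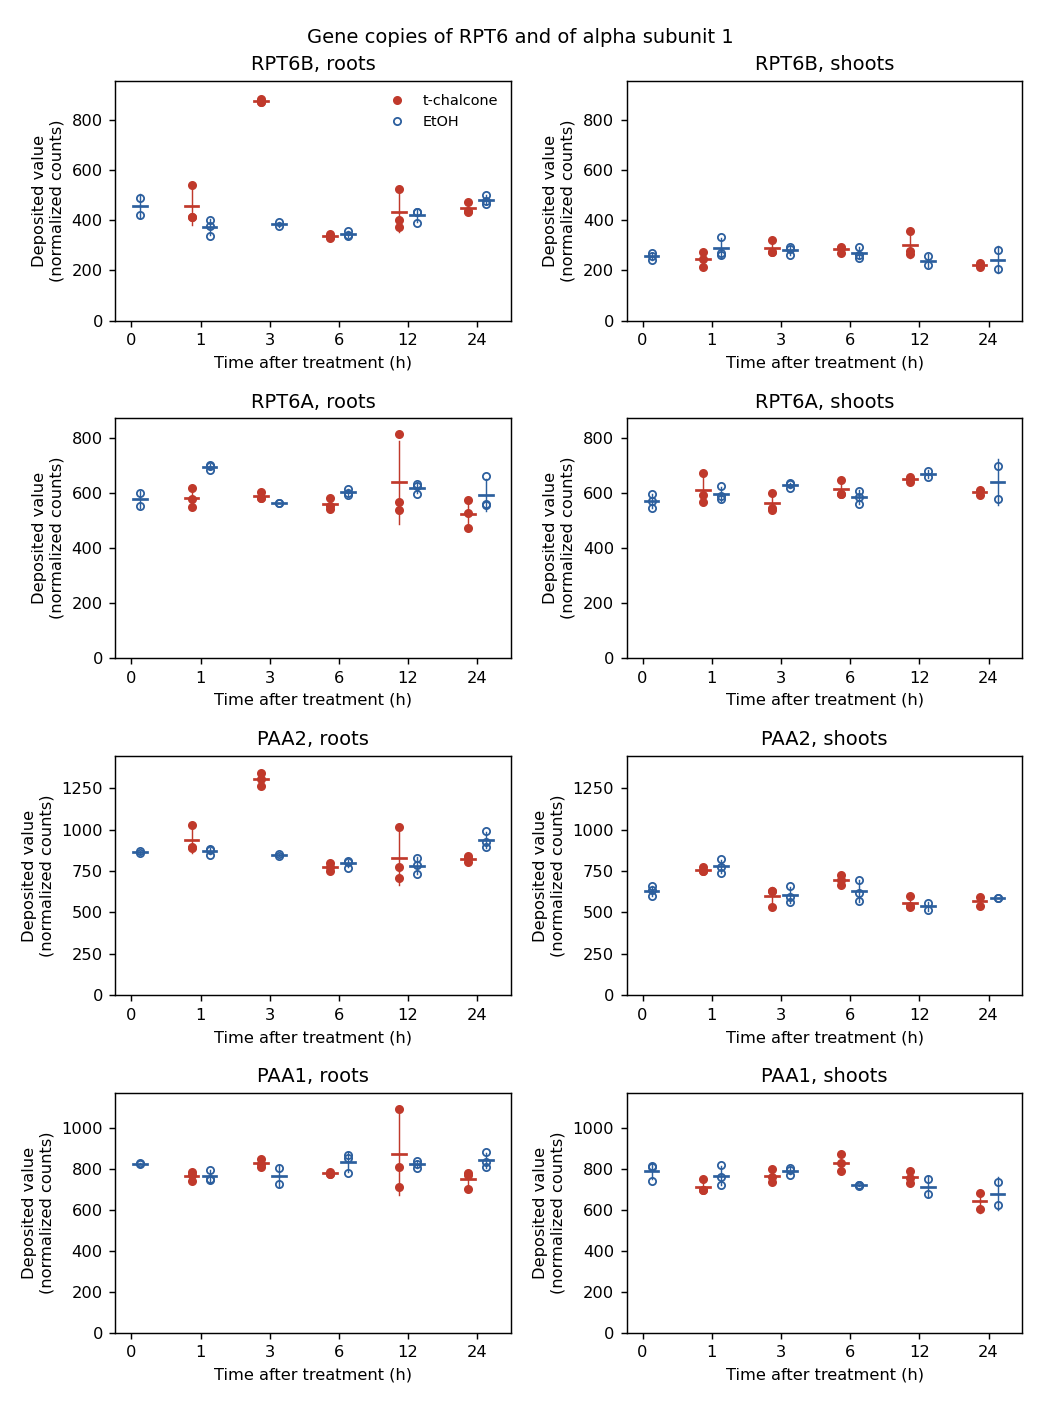
RPT6B, RPT6A, PAA2 and PAA1 in each library, as normalised counts against hours after treatment in roots and shoots (filled points t-chalcone, open points EtOH, bars means, lines SD). RPT6B lies at 872 to 881 in t-chalcone roots at 3 h, against 377 and 391 in EtOH roots, while RPT6A lies at 581 to 604 and at 563 and 564.

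By 6 and 12 h in roots limma called 0 members, with 1.24% of all genes called at 6 h and 0.716% at 12 h. At 6 h 37 of 44 subunit genes had a log2 fold change below 0, where 49.2% of all genes were above 0. Their median was -0.07, against -0.0 over all genes. At an unadjusted p under 0.05 limma counted 1 member at 6 h and 2 at 12 h, and edgeR and DESeq2 each called 1 member at each time. RPT6B had 331, 335 and 345 normalised counts with t-chalcone and 336, 340.2 and 357 with EtOH at 6 h, which overlapped. At 12 h the 3 t-chalcone root libraries spread widely: the mean deviation of core genes was 0.45, -0.03 and -0.24 in replicates 2, 1 and 3, while EtOH roots lay between 0.01 and 0.05. These t-chalcone replicates had 20.974, 1.723 and 1.102 M reads in the same order. EtOH replicates 1, 2 and 3 had 2.25, 18.562 and 18.125 M. Replicate 1 of each treatment carried an S number in place of an index sequence. The part of depth and of this mark was not tested. With this spread, 0 calls do not show that there was no effect.

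At 24 h in roots PAB2 and PAE1, both core alpha genes, were lower with t-chalcone. PAB2 averaged 301 ± 61.8 normalised counts with t-chalcone and 422 ± 30.4 with EtOH (SD, n = 3 each), and its log2 fold change was -0.51 (limma, adjusted p = 0.0147). PAE1 averaged 428 ± 25.4 with t-chalcone and 550.5 ± 44.4 with EtOH, at -0.36 (limma, adjusted p = 0.0402). edgeR called neither (adjusted p = 0.182 for PAB2 and 0.351 for PAE1). Of all genes 11.9% were called lower at this time, and the median of subunit genes and of all genes was -0.16. The t-chalcone roots had 0.866, 1.833 and 2.194 M reads and the EtOH roots 9.297 to 14.251 M. All 3 t-chalcone root libraries at 24 h carried an S number in place of an index sequence, so neither this mark nor the depth can be told apart from the treatment there.

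At 24 h in roots PAA2 had 803, 827 and 838 normalised counts with t-chalcone and 897, 926 and 991 with EtOH, and PBB2 had 427, 455 and 461 with t-chalcone and 518, 523 and 539.8 with EtOH. Neither was called. Their treated libraries lay below the controls, as in 27.2% of all genes. RPN11 had 777, 788 and 855 with t-chalcone and 777, 803 and 873 with EtOH, which overlapped.

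In shoots at 3 h the subunit genes lay slightly below 0: the median log2 fold change was -0.13, against -0.11 over all genes, and 39 of 44 were below 0, where 32.4% of all genes were above 0. The mean deviation of core genes was -0.21, 0.05 and -0.09 in t-chalcone replicates 1, 2 and 3, which had 1.514, 12.238 and 4.515 M reads, and 0.04 to 0.08 in EtOH shoots, which had 15.311 to 21.217 M. All 6 photosynthesis genes were below 0 and 2 of them, LHCB2.1 (-0.66) and RCA (-0.68), were called lower; their sum was 201127 to 282444 with t-chalcone and 295734 to 352919.7 with EtOH. The part of depth and of these genes in the result was not tested.

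PAC1, a core alpha gene, was called lower at 677 ± 36.7 normalised counts with t-chalcone and 830 ± 54.5 with EtOH (log2 fold change -0.29, limma, adjusted p = 0.0219; edgeR, 0.146), against 5.21% of all genes called lower. Leaving out 1 library gave 1 to 14 members called, the most without t-chalcone replicate 2. PBB2 had 263, 314 and 365 with t-chalcone and 359.6, 369 and 376 with EtOH, and RPN11 had 416, 462 and 521 with t-chalcone and 494, 536 and 540.1 with EtOH. RPN10 had 517, 568 and 652 with t-chalcone and 605, 615 and 692 with EtOH, and RPN1A 965, 1142 and 1203 with t-chalcone and 1201, 1269.5 and 1311 with EtOH. In these 4 genes the treatments overlapped.

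At 6 h in shoots 5 subunit genes were called higher, namely RPN8A (log2 fold change 0.30), PAD1 and PAF2 (0.27), PBD1 (0.25) and PAA1 (0.20). That is 11.4% of 44, against 15.4% of all genes called higher. edgeR called RPN8A and PAD1 of these, and with all 66 libraries limma called 0 members. Among the 44 subunit genes 37 had a log2 fold change above 0, where 56.4% of all genes did. Their median was 0.12, against 0.06 over all genes. In 45.5% of the 44 every t-chalcone library lay above every EtOH library, against 27.4% of all genes. Of the 6 photosynthesis genes 4 were called lower at this time, LHCB2.1 (log2 fold change -5.14), LHCB3 (-4.33), LHCA1 (-2.65) and CAB1 (-1.86), and RCA (0.57) and RBCS1A (0.47) were called higher. Their sum was 106592 to 134858 with t-chalcone and 206317 to 208372 with EtOH, and their part in the result was not tested. At 12 h RPT2A rose (878 ± 73.6 with t-chalcone, n = 3, and 661 ± 14.6 with EtOH, n = 2, log2 fold change 0.41; called in 2 of 5 fits that left out a library), where 1.97% of all genes were called higher. At 24 h RPT1A fell (1137 ± 18.0 with t-chalcone and 1374 ± 70.8 with EtOH, n = 2 each, log2 fold change -0.27; called in 0 of 4 such fits), where 6.68% were called lower. At 1 h in shoots limma, edgeR and DESeq2 each called 0 members, and limma counted 3 at an unadjusted p under 0.05, where 0.481% of genes were called.

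The difference of the treatment effect between roots and shoots was tested in a joint fit. At 3 h 19 subunit genes had a larger effect in roots than in shoots, or 43.2% of 44, against 2.85% of all genes, and none a smaller one. They were 8 of 23 core genes, 7 of 12 base genes, 3 of 8 lid genes and RPN10. RPT6B had the largest difference (1.15), followed by PAD2 (0.90) and PBE2 (0.86), and the median over subunits was 0.48, against 0.15 over all genes. With all 66 libraries limma called 0, with TMM scaling 9, with edgeR 6 and with DESeq2 7. Without EtOH roots replicate 2 at 3 h limma called 3. At 6 and 12 h limma called 0 members, where 6.6% and 1.04% of genes were called, with 9 and 2 members at an unadjusted p under 0.05, edgeR 0 at both and DESeq2 2 and 0.

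NAC053 rose in both tissues at 3 h, and the difference between them was 0.09 ± 0.23 on the log2 scale and was not called (limma, adjusted p = 0.881). At 1 h it was the only member whose effect differed, larger in roots by 1.02 (limma, adjusted p = 5.47e-03), where 0.777% of genes differed in that direction. At 24 h NAC053 (-0.79), PAB2 (-0.53) and PBF1 (-0.39) had a smaller effect in roots, against 11.6% of genes. The median difference over all genes was -0.13 at 24 h, and -0.26 with TMM scaling. The effect differed between times for 16 of 46 members in roots (34.8%, against 16.8% of genes) and for 6 of 46 in shoots (13%, against 33.4%).

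In EtOH libraries 32 of 46 members differed between tissues, or 69.6%, against 84.5% of all genes, and 18 differed with all 66 libraries. Higher in roots were 29, against 41.1% of all genes, and lower were PAB2, PAC1 and PBF1, at -0.14, -0.21 and -0.11, against 43.4%. NAC053 had the largest difference, at 2.24 ± 0.07 (limma, adjusted p = 9.36e-33): it ran from 439 to 893 normalised counts in 16 EtOH root libraries (median 664) and from 81.1 to 189 in 16 EtOH shoot libraries (median 139). NAC078 had medians of 575 in roots and 584 in shoots and was not called.

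Of the subunits the 4 largest differences were of ATPases: RPT3 by 0.67, RPT1A by 0.66, RPT5B by 0.65 and RPT6B by 0.64. RPT2A differed by 0.49, and in each of these genes the tissues did not overlap. RPT1A, for example, ran from 1558 to 2017 in roots and from 844 to 1424 in shoots. The copies RPT2B and RPT6A, at -0.01 and -0.02, were not called. RPN7 and RPN11 of the lid also did not overlap, at 0.35 and 0.53.

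**Figure D5:**
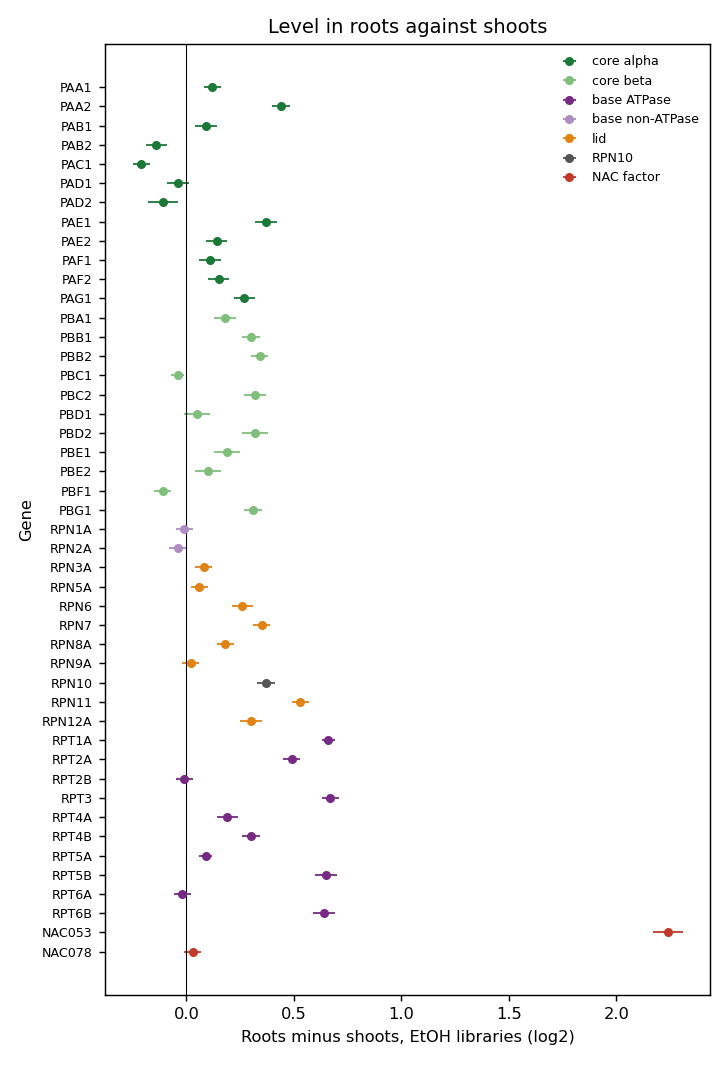
Difference in log2 level between roots and shoots in EtOH libraries (positive means higher in roots) for each of the 46 genes, with limma's standard error as bars and colour for the part of the particle. NAC053 stands at 2.24; the ATPases RPT3, RPT1A, RPT5B and RPT6B lie between 0.64 and 0.67.

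Across the 6 times in EtOH, group means of a subunit gene ranged over a median of 0.29 log2 units in roots and 0.34 in shoots. The same range was not taken over all genes. In roots 6 of 46 members changed with time (13%, against 42.5% of genes), and in shoots 27 of 46 (58.7%, against 79.2%). In roots 30 of 44 subunit genes had their highest mean at 24 h and 20 their lowest at 1 h, but only 4 of the 44 changed with time. These times were not counted over all genes, so the counts have no background beside them.

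Per kilobase of exon, RPT1A had the highest median level of the members in EtOH roots (893 normalised counts per kilobase) and PBF1 in EtOH shoots (848). PBE2 was lowest in roots (118) and NAC053 in shoots (55.1).

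Other genes of the pathway were taken from lists of known components, chosen with earlier results of these data known. At 1 h in roots CDC48B (log2 fold change 0.83), a copy of the ATPase that extracts ubiquitinated proteins from complexes and membranes, and the polyubiquitin gene UBQ3 (0.69) were called higher, against 2.91% of all genes. At 3 h in roots 5.47% of all genes were called higher, and 4 of 11 further subunit copies tested were, namely RPN5B (log2 fold change 0.57), RPN2B (0.56), RPT1B (0.45) and RPN9B (0.41). These 11 include the locus AT4G15160, listed as PAC2, with a coding length of 828 bases against 753 for PAC1. Whether that locus is a subunit copy was not checked. CDC48B had the largest change of the lists, at 976 ± 151 with t-chalcone and 299.8 ± 29.7 with EtOH (log2 fold change 1.69 ± 0.19, limma, adjusted p = 2.76e-07). CDC48A rose by 0.60, making 2 of 14 shuttle and unfolding genes. UBQ3 rose by 0.94 (1 of 7 ubiquitin and E1 genes) and the deubiquitinase UBP6 by 0.35 (1 of 9 activators and assembly factors). Polyubiquitin genes share near-identical repeats, so the value of UBQ3 is uncertain. None of 10 genes of the COP9 signalosome, a complex whose subunits are related to those of the lid, was called by limma at 3 h in roots (median 0.02, 0 at an unadjusted p under 0.05). 

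At 24 h in roots, where 0.924% of all genes were called higher and 11.9% lower, 4 of 11 further subunit copies were called lower: RPN8B (-0.41), RPT1B (-0.43), DSS1I (-0.52) and DSS1V (-0.56). UBQ4 (-0.35) and the signalosome gene CSN8 (-0.67) were also lower. The locus AT4G15160, listed as PAC2, was called higher (0.63), and whether it is a subunit copy was not checked. UMP1B, a maturation factor of the core, was also called higher, at 2.1 on the log2 scale. UMP1B had 49.0 ± 54.6 normalised counts with t-chalcone, an SD above the mean, and 6.92 ± 2.17 with EtOH. The lowest values of any gene in these t-chalcone libraries were 6.58, 3.14 and 2.62 in replicates 1, 2 and 3. The part of this spread, and of counts this low, in the UMP1B call was not tested.

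In shoots at 3 h the shuttle genes RAD23C (-0.44) and DSK2A (-0.40) and the lid copy RPN3B (-0.40) were called lower and UBQ3 (0.47) higher. Of all genes 5.21% were called lower and 1.63% higher at this time. At 6 h in shoots the deubiquitinase UCH2 (0.39), UMP1A (0.30), CSN7 (0.27) and the E1 enzyme UBA2 (0.27) were called higher, against 15.4% of all genes. UCH2 and UMP1A were 2 of 8 activators and assembly factors tested, CSN7 1 of 10 signalosome genes and UBA2 1 of 7 ubiquitin and E1 genes. RAD23C (-0.46) and UBQ3 (-0.36) were called lower, where 7.73% of all genes were called lower. At 12 h the activator PA200 (0.41) was called higher, 1 of 8 activators and assembly factors tested, against 1.97% of all genes. At 24 h RPT1B (0.49), 1 of 11 further subunit copies, and RAD23C (0.43), 1 of 14 shuttle and unfolding genes, were called higher. These are 9.09% and 7.14%, against 6.08% of all genes. UBQ14 (-0.53), 1 of 7 ubiquitin and E1 genes, and CSN7 (-0.35), 1 of 10 signalosome genes, were called lower, against 6.68% of all genes.

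Counted in the full 250 bases and on both strands, TGGGC was present in 19 of 44 subunit genes, or 43.2%, and in 5551 of 22698 protein-coding genes of the table, or 24.5%. It was present in 7 of the 16 subunit genes called in roots at 3 h (43.8%) and in 12 of the 28 not called (42.9%). In PAD2 and RPN3A, which were called, and PBF1 and PBG1, which were not, every match lies outside the exon-free stretch next to the gene start. RPT6B and PAA2, with the smallest p of the base ATPases and of the alpha genes, had none. A heat-shock-like motif, GAANNTTC, was present in 5 of 44 (11.4%) and in 9.45% of genes. A match is a description of letters, not a binding site.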

How the data were processed

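RNA-seq values of 72 columns and 22884 genes were deposited as a signal: counts per gene scaled by DESeq2 size factors. DESeq2 1.14.1 and TAIR10 are the tool and build in the submitters' processing notes. The aligner, the counter and its use of strand were not given in the sources used here, so overlapping antisense genes cannot be told apart. Values were whole multiples of each column's lowest value (100.0% within 0.01), and read numbers were recovered on that basis. No value was 0, and in the libraries fitted 5.4% to 20.0% of genes stood at the lowest one, so counts may have been shifted or rescaled before deposit: recovered reads, totals in M and the edgeR and DESeq2 fits hold only up to that.

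Libraries of at least 0.5 M entered limma 3.58.1 (R 4.3.3) with a mean-variance trend on log2(value + 1), after a filter of 10 in at least 3 libraries. Fits were per tissue, or over both tissues for differences between them, with 1 mean per group. Two-sided p-values were corrected over every gene tested by the Benjamini-Hochberg method at 0.05; fold changes on this scale understate those of low genes. edgeR 4.0.16 and DESeq2 1.42.0 ran on recovered reads as alternatives, beside other scalings, filters, weights and left-out libraries. The limma script was tested on simulated data. Counts limit precision: the lowest recovered number of a member in a fitted library was 16 (PBE2).

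The 46 members, the lists, and the tests were chosen with earlier results of these data known. Members given library by library were both NAC genes and, in each part of the particle, the gene with the smallest p in roots at 3 h with its copy; genes of the other pathway lists are named where called, except for a result that is not reported here. Sequences and exon lengths come from TAIR10.1, RefSeq, read by locus tag; the deposited table carries no coordinates. Coding identity came from a global alignment (Biopython 1.88), and figures from matplotlib 3.10.9.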

Additional observations from a re-analysis of the deposited data

Results flagged for a closer look

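These results were listed because the effect of t-chalcone differed between times or between tissues by a test of that difference. Between times it differed for 16 members in roots (34.8%, against 16.8% of all genes) and for 6 in shoots (13%, against 33.4%, a share below that of all genes). Between tissues it differed for 1 member at 1 h (1.45% of all genes), 19 at 3 h (3.82% of all genes) and 3 at 24 h (6.52% of members, against 16.8% of all genes, again a lower share).

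The differences below are the log2 effect in roots minus that in shoots. At 1 h it was 1.02 for NAC053. At 3 h the ATPases stood at 1.15 (RPT6B), 0.71 (RPT5B), 0.57 (RPT3), 0.52 (RPT2A), 0.43 (RPT1A) and 0.35 (RPT5A), and RPN1A at 0.48. The lid genes stood at 0.70 (RPN11), 0.57 (RPN3A) and 0.48 (RPN5A), and RPN10 at 0.64. The alpha genes stood at 0.90 (PAD2), 0.64 (PAA2) and 0.64 (PAB2). The beta genes stood at 0.86 (PBE2), 0.76 (PBD2), 0.74 (PBB2), 0.67 (PBA1) and 0.46 (PBC1). At 24 h the values were -0.79 (NAC053), -0.53 (PAB2) and -0.39 (PBF1). The 24 h values rest on t-chalcone roots that all carry an S number and have 0.866 to 2.194 M reads, which cannot be told apart from the treatment.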

How the results depend on the processing

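Counts of members called for t-chalcone against EtOH moved by over 1.5 times with several settings. With all 66 libraries they were 33 in roots at 3 h and 0 at 24 h, and 0 in shoots at 3, 6, 12 and 24 h. With array weights over all 66 they were 7, 5, 1 and 7 in roots at 1, 3, 6 and 24 h, and 21, 13, 5 and 0 in shoots at 3, 6, 12 and 24 h. With edgeR they were 3, 1, 1 and 1 in roots at 1, 6, 12 and 24 h, and 1, 2, 2 and 0 in shoots at 3, 6, 12 and 24 h. With DESeq2 they were 5, 1 and 1 in roots at 1, 6 and 12 h, and 1, 2 and 2 in shoots at 3, 6 and 12 h. With only the groups compared they were 30 and 0 in roots at 3 and 24 h, and 1, 3 and 0 in shoots at 3, 6 and 24 h. With TMM scaling they were 1 in roots at 6 and 12 h, and 2 and 1 in shoots at 6 and 24 h. Median-of-ratios scaling gave 1 in roots at 6 h, no filter gave 3 in shoots at 6 h, and leaving out the libraries with an S number gave 1 in roots at 6 h and 0 in shoots at 24 h, where that leaves 1 library against 1 and the 0 says nothing about stability.

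For effects that differ between times, all 66 libraries gave 8 in roots and 0 in shoots, and in shoots array weights gave 24, edgeR 10 and DESeq2 10. For effects that differ between tissues, all 66 libraries gave 0 at 1, 3 and 24 h, array weights 3, 8, 12, 1 and 0 at 1, 3, 6, 12 and 24 h, edgeR 2, 6 and 0 at 1, 3 and 24 h, DESeq2 2, 7 and 2 at 1, 3 and 6 h, TMM scaling 9 and 7 at 3 and 24 h, and a filter of 50 gave 5 at 24 h. For EtOH over time, all 66 libraries gave 3 in roots and 5 in shoots, and in roots array weights gave 39, edgeR 17 and DESeq2 27. For roots against shoots in EtOH all 66 libraries gave 18. The cause of these moves was not tested.

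Leaving out 1 library at a time gave these ranges of calls in roots: 1 to 1 at 1 h, 6 to 16 at 3 h, 0 to 1 at 6 h, 0 to 1 at 12 h and 0 to 2 at 24 h. In shoots they were 0 to 0 at 1 h, 1 to 14 at 3 h, 1 to 4 at 6 h, 0 to 1 at 12 h and 0 to 5 at 24 h. Effects differing between times ranged from 6 to 30 in roots, the fewest without EtOH replicate 2 at 3 h, and from 4 to 13 in shoots. EtOH over time ranged from 4 to 8 in roots and 23 to 33 in shoots. Effects differing between tissues ranged from 1 to 1 at 1 h, 3 to 29 at 3 h, 0 to 1 at 6 h, 0 to 2 at 12 h and 0 to 9 at 24 h, and roots against shoots in EtOH from 31 to 33. Among the 31 called values of single members, leaving out a library kept the call in 95 fits and lost it in 68, and the other settings kept it in 277 and lost it in 62; none turned sign.

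No paired analysis was possible because replicate numbers follow the order of deposit and pair nothing. Without the S-number libraries no value could be had for roots at 24 h, for times in roots or for tissues at 24 h; median-of-ratios scaling was not run for the joint fits, and array weights met convergence warnings. Where a group has 2 libraries, leaving one out leaves 1, assumed to vary like the other groups. Groups of 2 libraries limit the comparisons at 0 and 3 h in roots and at 12 and 24 h in shoots.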
